A study of Rattus norvegicus with 16 samples.

Results

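The 5 genes studied here, which act in mitochondrial energy production and protein import, were followed in control and denervated rat muscle: Cox8a, Cox6a1, Ndufa5, Atp5f1d and Timm23. They were chosen by gene symbol, and each had 1 probe among the 1176 probes tested, which named 1096 genes in all. All 5 were therefore measured, and none was removed by a filter. The choice was made with their difference between denervated and control muscle already known. That difference is therefore described here, and nothing is read from the calls these genes received in the fit over all probes.

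RNA came from the EDL (extensor digitorum longus), a hind limb muscle made up mostly of fast fibres, of Brown-Norway rats 6 months old. Total RNA was copied into labelled cDNA and hybridised to Clontech nylon membranes, here called arrays. There were 8 arrays from control muscle and 8 from muscle denervated for 2 months, with rats numbered 1 to 8 in each group. How the nerve was interrupted, and whether a control muscle came from the same animal, is not given in the sources used here. Nothing states that the 8 arrays of a group came from separate animals beyond these numbers, so p-values measure the spread between arrays. Values are on a logarithmic scale of unstated base and are called log units.

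As background, the respiratory chain of the inner mitochondrial membrane passes electrons from NADH through complex I to cytochrome c oxidase (complex IV), and ATP synthase uses the resulting proton gradient to make ATP. Most subunits are encoded in the nucleus and must be imported through protein complexes of both mitochondrial membranes. Some small subunits of cytochrome c oxidase exist as paired isoforms: a heart or muscle type found mainly in striated muscle, and a liver type found in most other tissues. Cox8a and Cox6a1 encode liver-type forms of subunits VIII and VIa. Their muscle-type partners Cox8b and Cox6a2, and the muscle-type Cox7a1, were not found by symbol among the tested probes. The paired isoforms could therefore not be compared.

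The array of control rat 6 stood apart, with a mean over all probes of 6.63 log units against 8.19 to 8.31 on the other 15 arrays. Each array had a floor, a lowest value shared by 22 to 206 probes, so a gene read at the floor may lie anywhere below that value. No 2 arrays were copies, since at most 0.0850% of values were identical in any pair. Muscle identity was checked on a list of fibre markers, of which 7 of 32 were measured. Ckm, the muscle creatine kinase, averaged 13.01 in control and 13.72 in denervated muscle and was above the floor on every array. Tpm1, a tropomyosin, was read at the floor in 5 control and 4 denervated muscles. In whole muscle, a change in the share of a cell type and a change in RNA per cell cannot be told apart.

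Cox8a, a small structural subunit of cytochrome c oxidase, was read at the array floor in most control muscles and above it in every denervated muscle. In control rats 1 to 8 it read 5.74, 5.66, 9.22, 7.25, 5.88, 3.27, 5.74 and 6.20 log units. Of these 8 values 6 lay at the floor of their array, and only those of rats 3 and 4 were above it. In denervated rats 1 to 8 it read 12.07, 11.56, 8.61, 11.19, 11.24, 11.43, 10.28 and 11.29, with none at the floor. The groups overlapped through rat number 3 alone, as control rat 3 was the highest control and lay above denervated rat 3, the lowest denervated array. Means were 6.12 ± 1.67 and 10.96 ± 1.07 (SD, n = 8 per group), a difference of 4.84 that ranked 2 among 1176 probes. With 6 control values at the floor the control mean is an upper bound, so this difference and those below for Cox8a are lower bounds, and the control SD partly reflects where the floors lie. Without the low array of control rat 6 the difference was 4.43, and without control rat 3 it was 5.28.

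The array of control rat 3 was also read for other genes, which were chosen after their values were seen. Tnnt2, the cardiac and embryonic troponin T, Myh3, the embryonic myosin heavy chain, and the denervation-induced transcription factor Runx1 were each at the floor of 6.69 on it. On the array of denervated rat 3 they read 11.24, 10.34 and 9.97. The floor of control rat 3 was the highest of all arrays, with 206 probes at it, so lower levels could not be read there. What set the Cox8a value on this control array was not tested.

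The promoters of Cox8a and of Timm23 are shown because both hold the same motif pair, although Cox8a differed most of the 5 genes and Timm23 differed by 0.02 as deposited. They run from 250 bases before to 50 bases after the annotated start, and come from RefSeq, assembly GRCr8, minus strand, at chr1:213833574-213833873 for Cox8a and chr16:7442570-7442869 for Timm23. Capitals mark matches on either strand to the core letters CCGGAAG of the ETS factor family, which includes a regulator of nuclear genes for mitochondrial proteins.
Cox8a: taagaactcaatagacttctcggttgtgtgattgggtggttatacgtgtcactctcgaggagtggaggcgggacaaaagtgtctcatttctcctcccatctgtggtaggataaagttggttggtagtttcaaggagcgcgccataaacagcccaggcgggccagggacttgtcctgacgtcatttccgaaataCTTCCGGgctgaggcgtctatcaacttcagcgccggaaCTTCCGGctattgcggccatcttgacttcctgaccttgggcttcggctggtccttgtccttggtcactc
Timm23: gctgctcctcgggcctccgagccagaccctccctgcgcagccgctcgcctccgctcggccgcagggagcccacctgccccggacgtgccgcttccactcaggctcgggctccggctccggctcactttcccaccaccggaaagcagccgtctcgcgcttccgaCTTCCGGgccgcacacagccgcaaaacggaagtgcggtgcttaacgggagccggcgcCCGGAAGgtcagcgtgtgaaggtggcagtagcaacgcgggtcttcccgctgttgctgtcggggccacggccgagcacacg
Each holds 2 such matches, with their first base 57 and 19 bases before the start in Cox8a and 87 and 30 bases before it in Timm23. At least 1 match was found in 8.75% of the 33469 RefSeq promoters of this length. The promoters of Ndufa5 and Atp5f1d held none, and that of Cox6a1 is only named. The core of NRF-1, another regulator of respiratory genes, was searched on both strands and matched once among the 4 promoters, in Ndufa5, 32 bases before the start, against 4.25% of all promoters. The GC box letters GGGCGG also matched once, in Ndufa5, against 33.1%. The letters AAGATGGCG of YY1, TCAAGGTCA of the ERR receptors and TATAAA of the TATA box matched in none of the 4 windows, against 1.73%, 0.433% and 14.2% of all promoters. A match is a description of letters, not of binding.

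Cox6a1, a regulatory subunit of the same enzyme complex, was measured above the floor on all 16 arrays. Control rats 1 to 8 read 10.33, 10.82, 9.08, 10.02, 9.78, 8.45, 8.55 and 9.32 log units, and denervated rats 1 to 8 read 12.13, 11.71, 9.99, 10.43, 10.69, 10.80, 10.43 and 11.07. The groups overlapped, with 3 of 8 denervated arrays above every control and 5 of 8 controls below every denervated array. Rats 1 and 2 were the highest in denervated muscle, and rats 6 and 7 the lowest in control. Means were 9.54 ± 0.84 and 10.91 ± 0.71 (SD, n = 8 per group), a difference of 1.36 that ranked 54 among 1176 probes. At each of the 8 rat numbers the denervated array was the higher one, but shared numbers are not known to mark the same animal and are not taken as pairs.

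**Figure D1:**
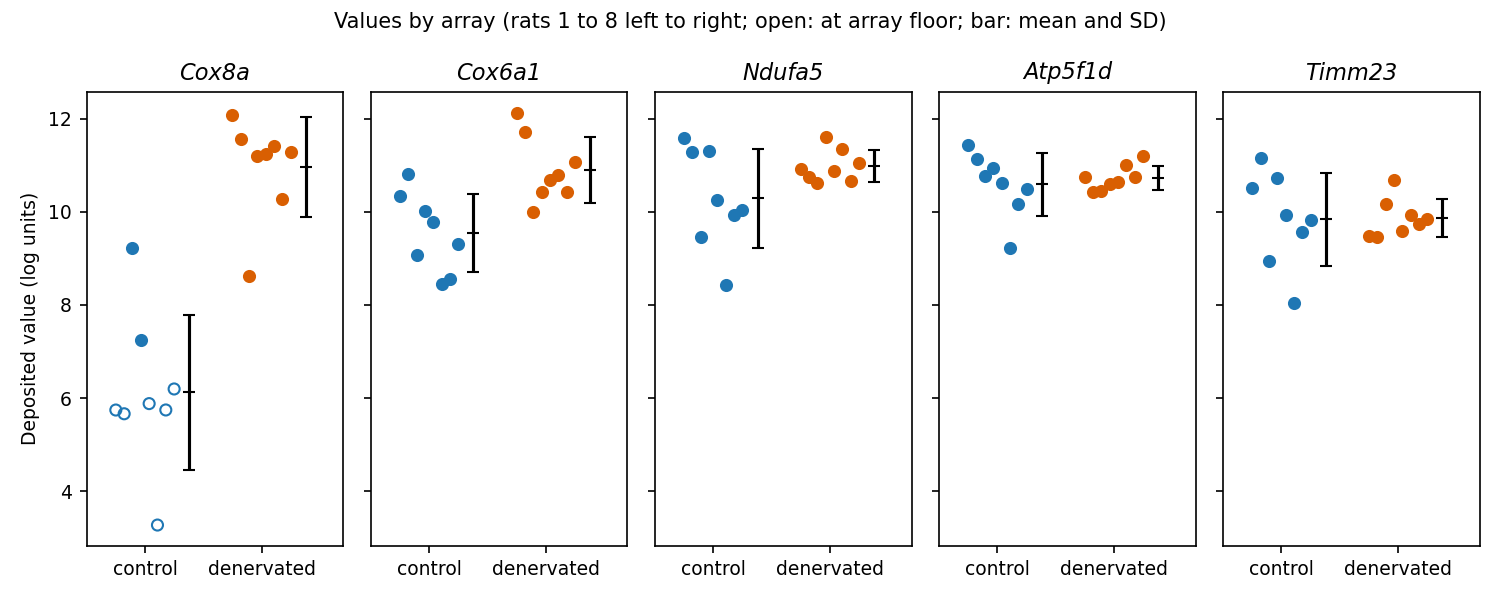
Deposited values in log units of the 5 genes on each array, control in blue and denervated in orange, with rats 1 to 8 from left to right, open circles for values at the array floor, and bars for mean and SD. Cox8a sits at the floor in 6 of 8 controls and at 8.61 or higher in denervated muscle, while Atp5f1d and Timm23 have means within 0.13 of each other between groups.

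Ndufa5, an accessory subunit of complex I, read 11.58, 11.29, 9.47, 11.31, 10.26, 8.43, 9.93 and 10.05 log units in control rats 1 to 8. Denervated rats 1 to 8 read 10.92, 10.75, 10.62, 11.60, 10.87, 11.36, 10.67 and 11.04. Of the denervated arrays 7 of 8 lay inside the control range, and rat 4, at 11.60, was just above its highest value of 11.58. Means were 10.29 ± 1.07 and 10.98 ± 0.35 (SD, n = 8 per group), a difference of 0.69 that was smaller than the control SD. It was 0.42 without control rat 6.

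Atp5f1d, the delta subunit in the central stalk of ATP synthase, read 11.44, 11.13, 10.77, 10.93, 10.63, 9.22, 10.17 and 10.48 log units in control rats 1 to 8. In denervated rats 1 to 8 it read 10.76, 10.43, 10.45, 10.60, 10.64, 11.01, 10.74 and 11.20. Every denervated value lay inside the control range, and the denervated array was the higher one at 4 of 8 rat numbers, which are not taken as pairs. Means were 10.60 ± 0.68 and 10.73 ± 0.27 (SD, n = 8 per group). The difference of 0.13 was smaller than either SD and stood at -0.07 without control rat 6.

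Timm23, the channel-forming subunit of the translocase that carries presequence proteins across the inner membrane, read 10.52, 11.15, 8.94, 10.73, 9.94, 8.04, 9.56 and 9.83 log units in control rats 1 to 8. Denervated rats 1 to 8 read 9.48, 9.46, 10.17, 10.67, 9.59, 9.94, 9.73 and 9.84. All denervated values lay inside the control range. Means were 9.84 ± 1.01 and 9.86 ± 0.41 (SD, n = 8 per group), a difference of 0.02, or -0.23 without control rat 6. Leaving out control rats 3 or 7 or denervated rats 3 or 4 in turn also turned its sign, at -0.10, -0.02, -0.02 and -0.09.

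Ndufa5, Atp5f1d and Timm23 were also more alike between denervated than between control arrays. Their denervated SD was 0.323, 0.392 and 0.403 of the control SD, where the median ratio over all probes was 0.770. Cox8a and Cox6a1 stood at 0.641 and 0.840. Of all probes, 70.7% had a smaller SD in denervated than in control muscle. Part of the control spread came with the low array, since without control rat 6 the ratios of Ndufa5, Atp5f1d and Timm23 were 0.419, 0.632 and 0.539 against a median of 0.942. With each array centred on its median they were 0.535, 0.449 and 0.722 against 0.932. Cox8a and Cox6a1 then stood at 0.738 and 0.937, so Timm23 was close to Cox8a on this scale. No test was made of these ratios.

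In the limma fit over all probes, 2 of the 5 genes were called higher, Cox8a and Cox6a1, where 6.29% of all 1176 probes were called in either direction and 5.44% were called higher. None of the 5 had groups without overlap, which 1.19% of probes had in the higher direction. The difference was above 0 for all 5 as deposited, and for 63.7% of all probes. Since the genes were picked on this contrast, nothing is read from the count. Atp5f1d and Timm23 lay below the median difference of all probes, 0.22.

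The liver-type oxidase subunits were set against the other 3 genes within each array, which removes any shift common to all probes of an array. The probe IDs of Cox8a and Cox6a1 start with RG and those of the other 3 genes with RA. A shift between these kinds of probe would not be removed, and whether there was one was not tested. On each array the mean of Ndufa5, Atp5f1d and Timm23 was subtracted from the mean of Cox8a and Cox6a1. The resulting value was -3.14, -2.95, -0.58, -2.35, -2.44, -2.71, -2.74 and -2.36 in control rats 1 to 8. It was 1.72, 1.43, -1.11, -0.15, 0.60, 0.35, -0.03 and 0.49 in denervated rats 1 to 8. Rat number 3 was again the only overlap, with the highest control and the lowest denervated array. Means were -2.41 ± 0.79 and 0.41 ± 0.89 (SD, n = 8 per group), so the balance moved by 2.82 log units towards the liver-type subunits (SE 0.42 from the SDs of both groups). These are changes in balance, because levels of different probes cannot be compared.

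Both oxidase genes moved in that direction. Cox8a alone moved by 4.56 relative to the other 3 genes, and, as 6 of its control values were at the floor, this and the shift of 2.82 are lower bounds. For Cox8a, 7 of 8 denervated arrays lay above every control. Cox6a1 alone moved by 1.08, from -0.70 ± 0.38 to 0.38 ± 0.83 (SD, n = 8 per group), and 6 of 8 denervated arrays lay above every control. The exceptions for Cox6a1 were denervated rats 3 and 4, at -0.42 and -0.53, against a highest control of -0.12 in rat 6. Denervated rats 1 and 2 were the highest for both genes. Among the other 3 genes, Ndufa5 moved relative to Timm23 by 0.67 within arrays (SE 0.16), and Atp5f1d relative to Timm23 by 0.11 (SE 0.27).

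**Figure D2:**
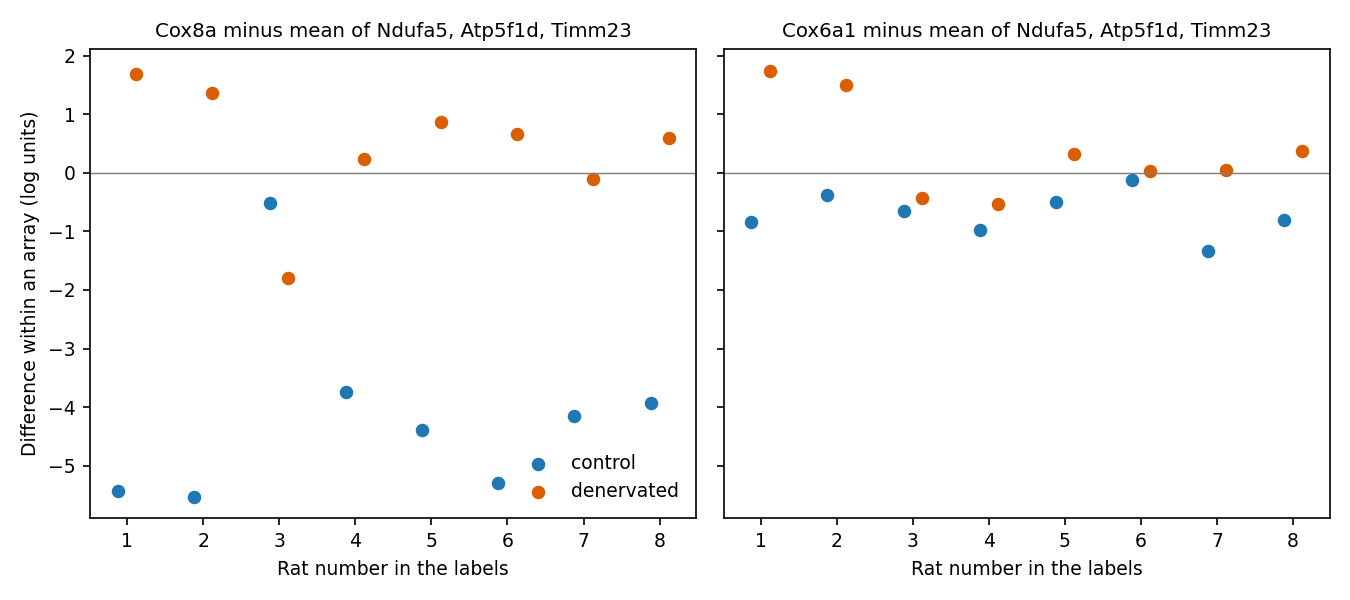
Value of Cox8a (left) and of Cox6a1 (right) minus the mean of Ndufa5, Atp5f1d and Timm23 on the same array, in log units, by rat number, control in blue and denervated in orange. For Cox8a the groups cross at rat number 3 only, and for Cox6a1 the denervated arrays of rats 3 and 4 lie below the highest control of -0.12.

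Cox8a and Cox6a1 kept their direction under each scaling tried, while Ndufa5, Atp5f1d and Timm23 did not. Cox8a differed by 4.63 after centring each array on its median, 4.49 after quantile normalisation and 3.89 when every value was raised to the highest floor of 6.69. Cox6a1 differed by 1.16 after centring and 0.85 after quantile normalisation. Ndufa5 stood at 0.48 and -0.06, Atp5f1d at -0.08 and -0.66, and Timm23 at -0.18 and -0.46 under these 2 scalings. The balance of the oxidase genes against the rest was 2.82 after centring, 3.06 after quantile normalisation and 2.34 with the common floor.

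Rats 1 to 4 and rats 5 to 8 differed in the size of every difference. Cox8a stood at 3.89 in the first set and 5.78 in the second, Cox6a1 at 1.0 and 1.72, and Ndufa5 at 0.06 and 1.32. Atp5f1d turned from -0.51 to 0.77 and Timm23 from -0.39 to 0.43. The median over all probes moved likewise from -0.03 to 0.55, and the second set holds the low array of control rat 6. The denervated arrays of the 2 sets differed too. Their floors were 4.99 to 5.93 in rats 1 to 4 and 2.51 to 4.08 in rats 5 to 8, and their medians 7.97 to 8.20 and 8.48 to 8.60. These sets were formed from the rat numbers alone. The within-array balance was nearly the same in both sets, 2.72 and 2.91. Whether the sets differ was not tested.

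**Figure D3:**
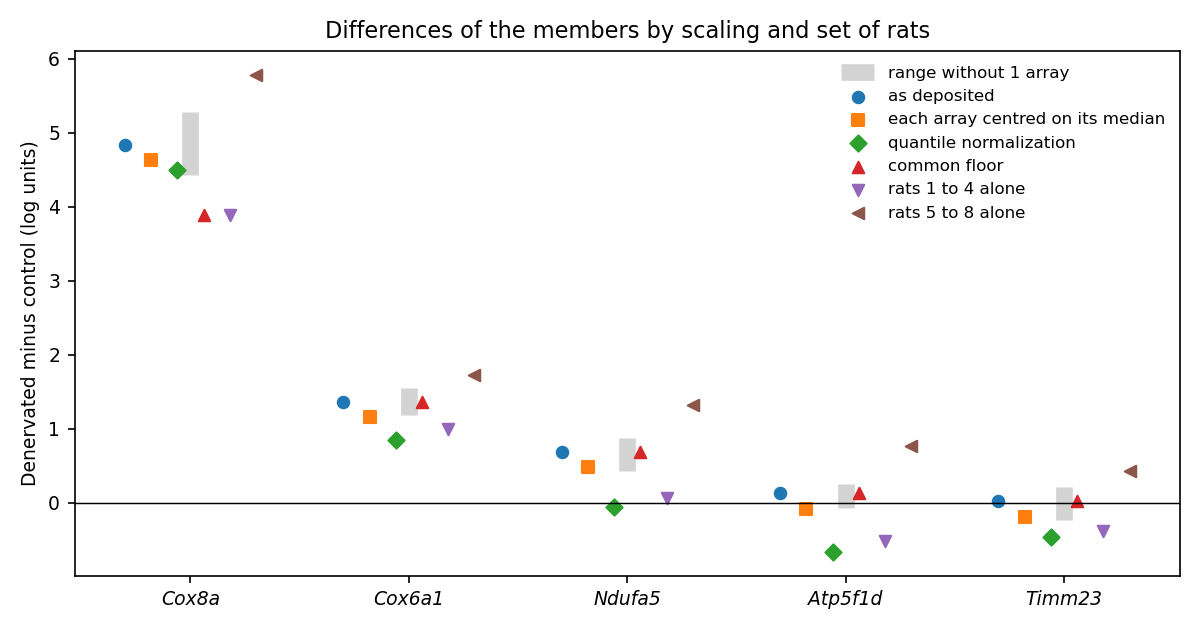
Denervated minus control difference in log units of each gene as deposited, under 2 scalings, with a common floor and in each set of rats; the grey bar spans the values when 1 array is left out. Cox8a stays between 3.89 and 5.78 and Cox6a1 between 0.85 and 1.72, whereas Atp5f1d and Timm23 lie on both sides of 0.

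Among control arrays, rats 1, 2 and 4 stood above the other 5 for Ndufa5 and Timm23 after centring. Ndufa5 lay 3.48, 3.17 and 2.89 log units above the array median in these 3 and at 1.35 to 1.87 in the others. Timm23 lay at 2.42, 3.03 and 2.31 in these 3 and from 0.82 upward to the 1.6 of rat 8 in the others. Because the control arrays fell into such clusters, and Cox8a was at the floor on most, no correlation between these 5 genes over them alone is given. For Atp5f1d the control arrays formed no such gap, with rat 1 highest at 3.34 and rat 7 lowest at 1.66.

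Among the 8 denervated arrays the 2 oxidase genes followed each other in rank. Cox8a and Cox6a1, each centred on the array median, gave Pearson's r = 0.770 (exact permutation p = 0.0304, adjusted p = 0.152 over 10 pairs) and Spearman's rho = 0.905 (exact permutation p = 0.00456, adjusted p = 0.0456, two-sided, n = 8). Without the 2 arrays farthest from the median of Cox8a r was 0.907. A set of 4 arrays is too small for a value of its own, and after removing the mean of each set r was 0.838. Ndufa5 and Timm23 gave r = 0.810 (exact permutation p = 0.0250, adjusted p = 0.152) and rho = 0.810 (exact permutation p = 0.0218, adjusted p = 0.0726, n = 8), but r = 0.202 without the 2 arrays farthest from the median, so that relation rests on those arrays. No other pair passed after adjustment. Points of a pair share their membrane, and the correlations were chosen after the values had been seen.

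**Figure D4:**
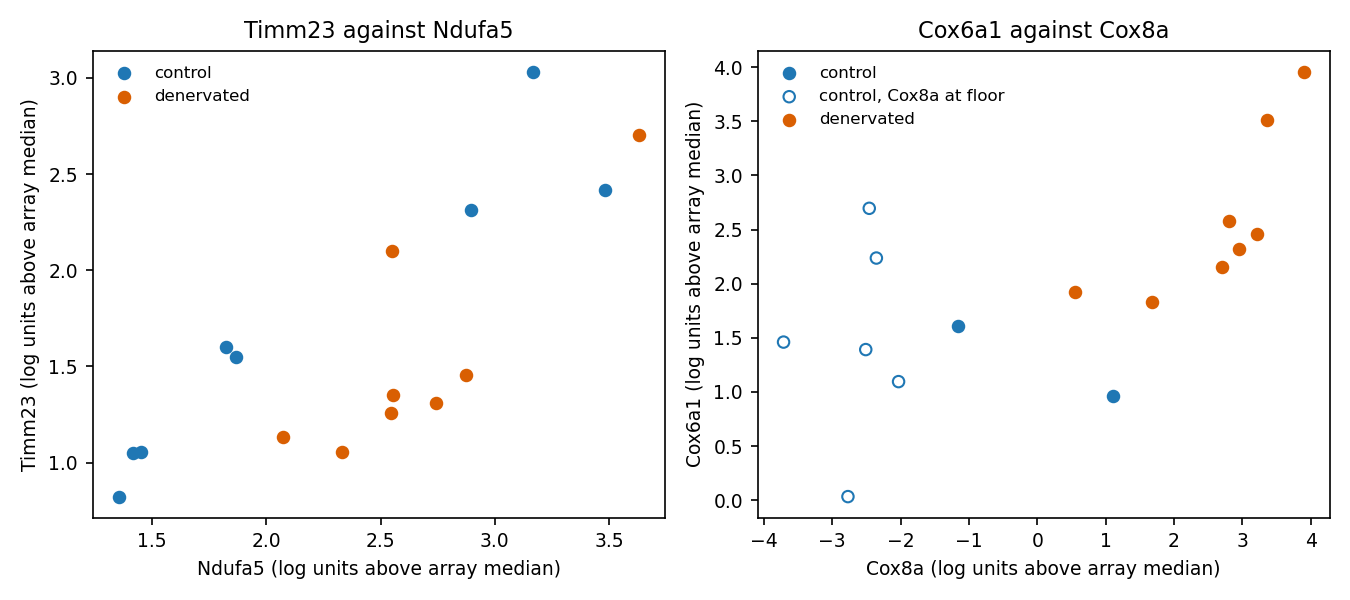
Centred values in log units above the array median, Timm23 against Ndufa5 (left) and Cox6a1 against Cox8a (right), 1 point per array, control in blue and denervated in orange, open where Cox8a is at the floor. In denervated muscle the arrays of rats 1 and 2 are highest for both oxidase genes, at 3.90 and 3.36 for Cox8a.

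The genes most like each of the 5 over all 16 centred arrays were found among 1067 candidate genes, as a description that holds the difference between groups and the clusters of control arrays. For Cox8a they were Eef1a1, a translation elongation factor (r = 0.920), Tnnt2 (r = 0.917) and Pcyt2, an enzyme of phosphatidylethanolamine synthesis (r = 0.899), where the median r over candidates was 0.05. These 3 differed between groups by 2.69, 5.34 and 2.27 log units. Tnnt2 and Pcyt2 were each at the floor on 4 control arrays. Within denervated arrays alone Eef1a1 still followed Cox8a at r = 0.886, against 0.533 and 0.448 for the other 2.

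For Cox6a1 the 3 most similar genes all encode ribosomal proteins, Rps6 (r = 0.908), Rpl5 (r = 0.905) and Rps24 (r = 0.889), where the median r over candidates was 0.09. Within denervated arrays alone these stood at r = 0.920, 0.849 and 0.729. Cox8a, the other oxidase gene, stood at r = 0.635 with Cox6a1. That was below the 95th percentile of r over candidates, which was 0.749 for Cox6a1 and 0.669 for Cox8a.

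Ndufa5 was most like Krt1, a keratin (r = 0.930), Fth1, the ferritin heavy chain (r = 0.918), and Fcer1a, a subunit of the IgE receptor (r = 0.913). Atp5f1d was most like Tnp2, a nuclear transition protein of sperm (r = 0.874), Dlx5, a homeobox factor (r = 0.839), and Cox6c, a subunit of cytochrome c oxidase (r = 0.808). Timm23 was most like Got1, the cytosolic aspartate aminotransferase (r = 0.863), Mdh1, the cytosolic malate dehydrogenase (r = 0.826), and Prkab1, a subunit of AMP-activated kinase (r = 0.806). None of these 9 genes passed in limma. Of them, Tnp2, Dlx5 and Fcer1a are known mainly from other tissues, and probes on such membranes can also bind related transcripts.

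Other mitochondrial genes were taken from lists of respiratory chain, import, TCA cycle and biogenesis genes, of which 15 were measured besides the 5. In limma 1 of the 15 rose and none fell, 3 passed at an unadjusted p under 0.05, and over all 1176 probes 64 rose, 10 fell and 211 passed unadjusted. Both counts are near the background. The median of the 15 differences was 0.24 against 0.22 over all probes. The gene that rose was Pmpcb, the beta subunit of the peptidase that removes import presequences in the matrix. Its control values ran from 8.02 to 10.61 with a median of 9.67, and its denervated values from 10.33 to 11.10 with a median of 10.82. It rose by 1.24 log units (SE 0.37, limma adjusted p = 0.0318), and the groups overlapped. Pmpcb did not pass after centring (limma adjusted p = 0.0675), quantile normalisation (0.177) or with a common floor (0.0525), nor when any of 10 of the 16 arrays was left out (control rats 1, 5, 6, 7 and 8 and denervated rats 1, 2, 4, 6 and 8), where the highest adjusted p was 0.0808. It passed with rat number as a block (limma adjusted p = 0.00686), also when centred (0.00411), with sets as a block (0.00686) and with robust variance (0.0363). In rats 5 to 8 alone it passed (limma adjusted p = 0.00224), and in rats 1 to 4 alone it did not (0.482).

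Of 7 import and carrier genes, the outer membrane receptor Tomm20 differed by 0.98 (limma adjusted p = 0.124) and the small inner membrane chaperone Timm10b by 0.78 (limma adjusted p = 0.241). Tomm20 passed without control rat 2 (limma adjusted p = 0.0478). Timm44, which tethers the import motor to the channel of Timm23, differed by 0.24, or 0.01 without control rat 6. Tspo, an outer membrane protein, stood at -0.11, the dicarboxylate carrier Slc25a10 at 0.02, and Mipep, another presequence peptidase, at -0.75 (limma adjusted p = 0.421). Tspo reached -0.41 and Slc25a10 -0.51 without control rat 6.

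Of 3 other respiratory chain genes none passed. Cox6c, another cytochrome c oxidase subunit, differed by 0.83 (limma adjusted p = 0.357), the complex I subunit Ndufv2 by -0.14 (limma adjusted p = 0.940) and Gpd2, a dehydrogenase that feeds electrons into the chain, by 0.33 (limma adjusted p = 0.706). Gpd2 stood at 0.14 without control rat 6. Ndufv2 went opposite ways in the 2 sets of rats, with -1.61 for rats 1 to 4 (limma adjusted p = 0.395) and 1.32 for rats 5 to 8 (limma adjusted p = 0.0424). It was at the floor in control rat 1 and denervated rats 2 and 3, and denervated rat 1 was next to its floor at 5.30, while denervated rats 5 to 8 read 10.04 to 10.69. When 1 array was left out it ranged from -0.52 without control rat 1 to 0.28 without denervated rat 2. Cox6c likewise had values of -0.17 for the first set and 1.83 for the second (limma adjusted p = 0.927 and 5.35e-04). Timm10b stood at 0.13 and 1.43 and Tomm20 at 0.74 and 1.22, both passing in rats 5 to 8 alone (limma adjusted p = 0.0213 and 0.0245). In that set alone 139 of 1176 probes were called, 131 of them higher, and the median difference over all probes was 0.55. Rats 5 to 8 include the low array of control rat 6. The difference between the sets was not tested. Mdh1 differed by 0.24, pyruvate carboxylase (Pc) by -0.64, the transcription factor Mef2d by 0.24, and the fusion proteins Mfn2 and Opa1 by 0.22 and 0.13, with adjusted p from 0.681 to 0.926 in limma. Without control rat 6 Mdh1 stood at 0.04, Pc at -1.07 and Opa1 at -0.28. Mfn2 reached 0.04 without control rat 8, Mef2d 0.03 without denervated rat 1 and Pc -0.27 without control rat 3.

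**Figure D5:**
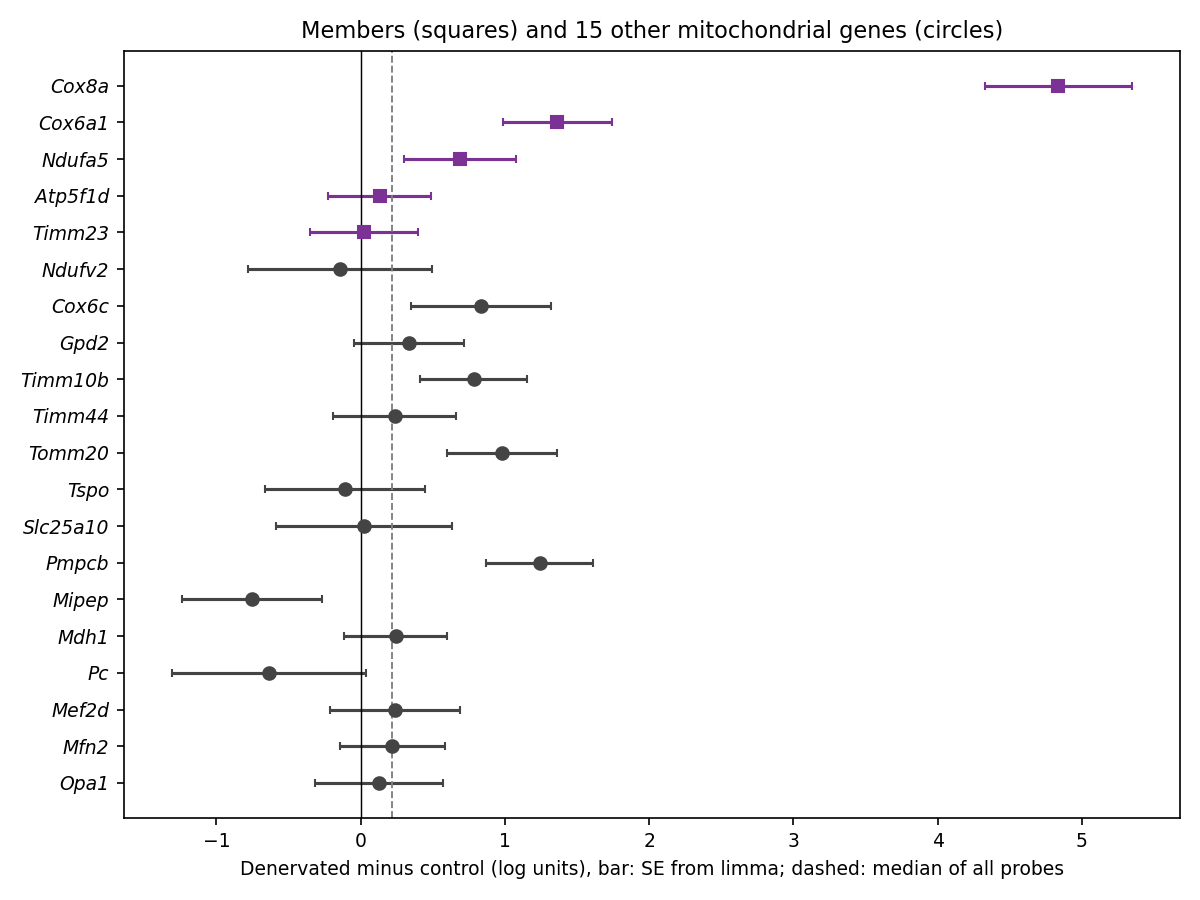
Denervated minus control difference in log units with its limma SE for the 5 genes (squares) and 15 other measured mitochondrial genes (circles); the dashed line is the median over all probes, 0.22. Cox8a at 4.84 stands far to the right of Cox6a1 at 1.36 and of Pmpcb at 1.24.

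Liver-type oxidase isoforms occur in cells other than muscle fibres, so markers of such cells are given beside the oxidase genes. Among fibroblast and matrix markers, 3 of 6 measured rose in limma and none fell, where 5.44% of all 1176 probes were called higher. None of the 6 was at the floor on any array. Their mean level ran from 8.28 to 10.78 log units over control arrays and from 10.36 to 11.86 over denervated arrays. The calcium-binding protein S100a4 rose by 2.88 and the proteoglycan Bgn by 2.30 (limma adjusted p = 5.06e-07 and 3.24e-05). In denervated rats 1 to 8 the list mean was 11.86, 11.60, 10.36, 11.47, 10.98, 11.70, 10.82 and 11.49. Denervated rat 1 was highest and rat 3 lowest for Cox8a and Cox6a1 as deposited. After centring, denervated rat 7 was the lowest for Cox6a1, at 1.83 against 1.92 for rat 3. Denervated rat 3 was also lowest for the list of 2 adipocyte markers, at 6.52, where denervated rat 1 stood low as well, at 7.56. Within the fibroblast list Fmod had the widest denervated range, 8.31 to 13.15, and did not pass (limma adjusted p = 0.548). Control rat 3, with the highest control Cox8a, had 3 of 8 controls above it for the fibroblast list, at 9.98. The part of these cells in the result was not tested.

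Of 6 macrophage and leukocyte markers, 1 rose, Mmp12, a macrophage elastase, by 1.16 (limma adjusted p = 0.0368). Cxcl1 stood at -1.92 (limma adjusted p = 0.0550), but 4 of its control values and 7 of its denervated values were floor readings. The Cxcl1 difference therefore partly reflects where the floors lie. The mean level of the 6 markers ran from 7.11 to 8.80 in control and from 7.70 to 9.08 in denervated muscle. Of 10 Schwann cell and nerve markers, 1 rose, the neurofilament Nefm by 1.38 (limma adjusted p = 0.0318), while Mapt differed by 0.81, with mean levels of 5.27 to 8.01 and 7.17 to 8.07. Of 2 adipocyte markers the desaturase Scd, at the floor in 5 controls, rose by 2.97 (limma adjusted p = 3.24e-05) and Acly differed by 0.08, with mean levels of 4.97 to 7.83 and 6.52 to 9.22. The endothelial and smooth muscle list had 2 measured markers and none passed in limma, Tagln at 0.55 and Myh11 at 0.45, with mean levels of 5.45 to 9.65 and 6.68 to 9.72. Of the muscle fibre markers, Mylk2, the myosin light chain kinase, fell by 1.87 and Myf6, a myogenic factor, rose by 1.29 (limma adjusted p = 4.18e-04 and 0.0203), with mean levels over the list of 8.78 to 11.39 and 10.05 to 10.94. No blood marker was measured. Over all 1176 probes 5.44% were called higher and 0.850% lower. The lowest control mean of each of these lists was that of rat 6, and the part of these cells was not tested.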

How the data were processed

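Total RNA from 16 muscles was measured on Rat Atlas membranes. Per the labels, phosphorimager images were processed with Array Vision and normalised by linear regression, and the deposited score values are on a log scale whose base and background correction are not stated in the material used. The table held 1185 probes. The 9 reference probes were left out. Of 1176 tested probes 1106 had 1 gene in the platform table, 2 several and 68 none, and 1099 of the 1106 gene IDs, with those of all 5 members, were found in RefSeq (GRCr8); the others kept the platform's symbol. For genes with several probes the brightest was used. Values were used unscaled in limma 3.58.1 (R 4.3.3; lmFit, eBayes with trend), with Benjamini-Hochberg adjusted p under 0.05 over all probes called. The same step was tested on simulated data. The number of arrays limits the precision.

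Members, lists and tests were chosen with earlier results of these data known. Named genes were the members, every measured mitochondrial list gene, the 3 genes most correlated with each member (1 gene per probe, at the floor on at most 8 arrays) and the 2 markers per list with the lowest adjusted p. Outside this rule, Ckm and Tpm1 (muscle identity), Myh3 and Runx1 (control rat 3) were named after their values were seen. Members' correlations used exact permutations (scipy 1.17.1). Alternatives were centring, quantile normalisation, inclusion of reference probes, a filter, a common floor, rat number or set of rats as a block, each set alone, robust variance and leaving out each array. Added after seeing the data were centring with a common floor, with the block, and without control rat 6. Figures used matplotlib 3.10.9.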

Additional observations from a re-analysis of the deposited data

Results flagged for a closer look

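Of 42 groups of 8 checked, 3 held a value that lay far from the rest, and chance flags about 1 group in 20. The within-array balance of the liver-type oxidase genes against Ndufa5, Atp5f1d and Timm23 was -0.58 on the array of control rat 3, where the next highest control was -2.35. Tomm20 stood at 12.23 in denervated rat 4, with the next highest denervated array at 11.25. Opa1 stood at 5.59 in control rat 6, the low array, with the next lowest control at 8.0.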

How the results depend on the processing

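The differences of Cox8a, Cox6a1, Ndufa5 and Timm23 and the within-array balance stayed within 1 SD of the reported value under every alternative run, although the sign of Ndufa5 turned after quantile normalisation and that of Timm23 under several. Leaving out 1 array gave 4.43 to 5.28 for Cox8a, 1.19 to 1.55 for Cox6a1, 0.42 to 0.87 for Ndufa5, -0.07 to 0.25 for Atp5f1d, -0.23 to 0.21 for Timm23 and 2.63 to 3.08 for the balance. Atp5f1d moved by more than its SD to -0.66 after quantile normalisation, -0.51 in rats 1 to 4 and 0.77 in rats 5 to 8. With 74 probes called as reported, 64 higher and 10 lower, rat number as a replicate block gave 113, set of rats as a block 131, rats 1 to 4 alone 30 and rats 5 to 8 alone 139, and leaving out 1 array 43 to 98, with 43 to 49 without control rats 5, 7 or 8 or denervated rats 1 or 6. Centring gave 35 higher and 15 lower, quantile normalisation 35 and 27. Of the other mitochondrial genes, 1 as reported, 0 were called after centring, after quantile normalisation, with a common floor or in rats 1 to 4, 2 with sets as a block and 5 in rats 5 to 8, and 0 to 2 without 1 array. With centring and the replicate block 141 probes and 2 of these genes were called. With centring and without control rat 6 the counts were 43 and 0. The cause of these changes was not tested. Same-numbered arrays had correlations of deviations from 0.0592 to 0.193. Only control rats 1 and 4 were most like the denervated array of their own number, so the numbers were not taken as pairs. Each control array was most like a denervated array of its own set, rats 1 to 4 or rats 5 to 8. The reported fit has no block for these sets, and a block leaves each difference as it is. Floors and the low array limit what can be said of Cox8a in control muscle, where 6 of 8 values are upper bounds.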
